A study of Mus musculus with 6 samples.

Results

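Aminoacyl-tRNA synthetases join each amino acid to its tRNA and so supply the ribosome with charged tRNA. The mRNAs of 36 of these enzymes were read by RNA-Seq in cultured primary mesangial cells of the mouse, the contractile supporting cells of the kidney glomerulus. The members were the rows of the expression table whose gene symbol, in its older spelling, stood on a list of synthetase genes. All 36 listed symbols were found among the 19730 rows. The 20 symbols without a final 2 form the cytosolic group, and the 16 symbols that end in 2 form the mitochondrial group.

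The study compared 3 Control libraries with 3 libraries from cells given transforming growth factor beta 1 (TGF-β1), a secreted protein that drives kidney scarring. The dose was 10 ng/ml and the exposure lasted 72 h. Cells of both groups were at passages 3 to 6 and grew in Dulbecco's modified Eagle medium with 25.5 mM glucose and 20% foetal bovine serum. No strain, age or genotype of the donor mice was given, and the RNA samples were described as triplicates without saying whether they came from separate animals or cultures. The p-values below therefore measure the spread between these libraries, of which part may be technical.

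Each synthetase recognises its own amino acid and tRNAs, and the enzymes fall into class I and class II by the fold of their catalytic domain. In mammals several cytosolic synthetases are held in a multi-synthetase complex by scaffold proteins, while the others are free. Mitochondria translate their own few mRNAs with a separate set of enzymes, all encoded in the nucleus and imported. Glycyl- and lysyl-tRNA synthetase are the exceptions, because Gars and Kars each make the enzyme of both compartments. Many cytosolic synthetase genes are known targets of ATF4, the transcription factor of the integrated stress response, which the cell uses when amino acids are short or proteins misfold.

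Values are FPKM, fragments per kilobase of transcript and per M (mega) of mapped fragments, and are given in the order of replicates 1 to 3. A change is on the log2(FPKM + 1) scale and was called when the limma p, adjusted over all tested rows, was under 0.05. Depth, recovered from the smallest steps of the values, was 10.1 to 10.9 M fragments per library. By that depth, 1 FPKM rests on about 20.1 to 21.8 fragments per 2 kb of transcript length, after subtraction of the fragment length. Pearson's r between libraries over all tested rows lay between 0.876 and 0.940 inside a group and between 0.818 and 0.853 across groups. TGF-β1 replicate 2 stood apart in base composition, by Spearman's rho between GC content and deviation from the group mean across 10116 rows. Its rho was -0.391, against 0.272 and 0.318 in the other TGF-β1 libraries and -0.0903 to 0.0984 in Control. Deviations within a group cancel out in each row, so the positive values with TGF-β1 partly mirror the negative one. Of 9 mesangial markers, Vim, Acta2, Pdgfrb and Gata3 had a mean of at least 1 FPKM and Cspg4, Des, Itga8, Pdgfra and Thy1 did not. The summed mesangial markers were at 2877 to 3409 FPKM in Control and 7216 to 7550 with TGF-β1. Nearly all of that sum was Vim and Acta2, which were called higher, while Pdgfrb was called lower (-0.34 log2 units, limma adjusted p = 0.0396) and Gata3 was not called (-0.39 log2 units, limma adjusted p = 0.276). Summed podocyte markers, with Nphs1 under 1 FPKM, were at 19.7 to 24.9 in Control and 12.6 to 13.7 FPKM with TGF-β1, and 3 of 5 had a mean of at least 1 FPKM. Macrophage markers, with Ptprc and Itgam under 1 FPKM, summed to 8.19 to 9.58 in Control and 2.26 to 3.24 FPKM with TGF-β1, and 2 of the 4 in the table had a mean of at least 1 FPKM. Of these, Csf1r was called lower, with means of 6.27 and 0.411 FPKM, and Cd68 was not called, with means of 2.79 and 2.22 FPKM (limma adjusted p = 8.56e-05 and 0.393). None of 5 endothelial markers or of the 3 tubule markers in the table reached a mean of 1 FPKM, with sums of at most 0.822 FPKM in any library. The part of these other cell types in the results below was not tested. In bulk RNA, a change in the share of a cell type and a change of RNA per cell cannot be told apart.

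Most cytosolic synthetases were higher with TGF-β1, whereas mitochondrial ones were called in both directions or not at all. Of the 20 cytosolic members, 17 were called higher and 0 lower, and 10 were higher by at least 1 log2 unit. Among all 11898 tested rows, 24.5% were called higher, 23.6% lower and 6.56% higher by at least 1 log2 unit. The 3 cytosolic members not called were Qars, Farsa and Vars. Of the 16 mitochondrial members, 15 passed the filter of a mean of 1 FPKM, and 2 of those were called higher and 3 lower. The remaining member, Mars2, was called higher in the fit without the filter, in which 14.6% of 19730 rows were called higher. The median change was 1.03 for the cytosolic members, -0.24 for the mitochondrial members that passed the filter and -0.02 for all tested rows. In 17 cytosolic members every TGF-β1 library was above every Control library, and in 0 every one was below, against 29.9% and 29.5% of all tested rows. In the mitochondrial group, 2 of the 15 that passed had all TGF-β1 libraries above and 6 had all below. With replicates 1 and 3 only, which leaves out the library that stood apart and Control replicate 2, 15 cytosolic members were called higher and 0 lower, and 0 mitochondrial ones higher and 1 lower. The mitochondrial counts also moved with single libraries. Without TGF-β1 replicate 2, 0 were called higher, and without any other single library 1 was, while without Control replicate 2 or TGF-β1 replicate 3, 1 was called lower.

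**Figure D1:**
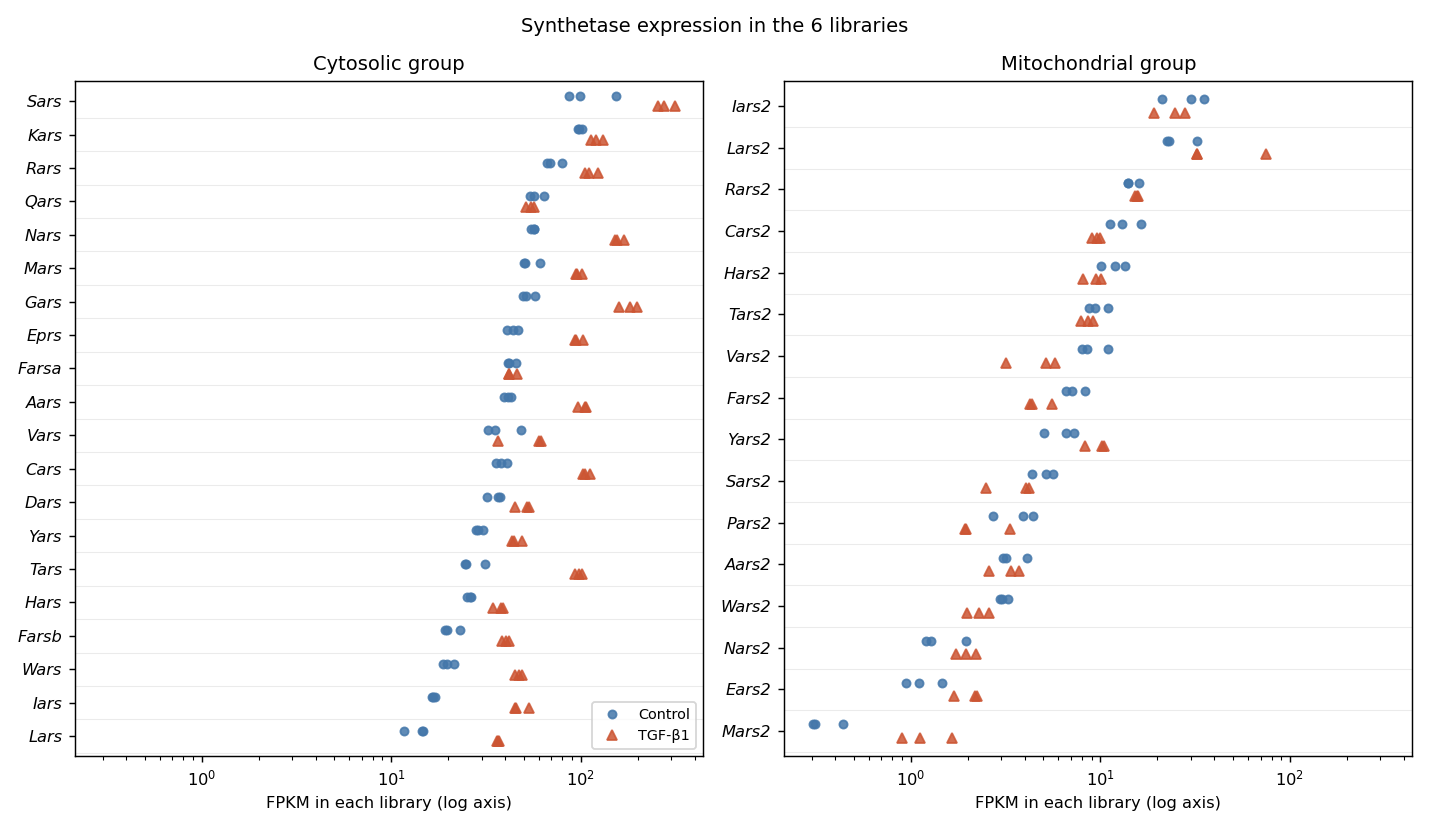
Expression of the 36 synthetases in the 6 libraries, in FPKM on log axes, with Control libraries as circles and TGF-β1 libraries as triangles. In the cytosolic panel the triangles lie to the right of the circles for 17 of 20 genes, whereas in the mitochondrial panel 6 genes have all triangles to the left.

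Summed over the 20 cytosolic members, expression was 879.7, 868.1 and 949 FPKM in Control and 1850.0, 1846 and 1737 FPKM with TGF-β1. The means were 899 ± 43.6 and 1811 ± 64.3 FPKM (SD, n = 3), a ratio of 2.02. The mitochondrial sum was 146, 140.1 and 150.2 FPKM in Control and 144, 126 and 177 FPKM with TGF-β1, with means of 145 ± 5.06 and 149 ± 25.8 FPKM (SD, n = 3). The cytosolic sums of the 2 groups were far apart, whereas the mitochondrial sums overlapped. The mitochondrial sums depend on Lars2, at 32.4, 22.6 and 23.01 FPKM in Control and 32.5, 32.3 and 74.4 FPKM with TGF-β1. Their overlap therefore does not show that the group as a whole was unchanged. All 20 cytosolic members were at 3 FPKM or more in every library. Of the mitochondrial members, 13, 12 and 12 reached this level in the Control libraries and 12, 9 and 11 in the TGF-β1 libraries, with the lowest number in TGF-β1 replicate 2.

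Of the 8 synthetases of the multi-synthetase complex, 7 were called higher. Iars, which charges isoleucine tRNA (mm9 chr13:49777469-49829636, plus strand), measured 16.4, 17.04 and 16.6 FPKM in Control and 45.3, 53.1 and 45.3 FPKM with TGF-β1. It had the highest fold change of the complex, 2.87-fold, with a change of 1.46 ± 0.0880 (SE) and a limma adjusted p of 7.25e-05. Lars, the leucyl enzyme, which is also known as a leucine sensor for mTORC1, measured 14.5, 14.8 and 11.7 FPKM in Control and 36.03, 37 and 36.8 FPKM with TGF-β1. Eprs, a fused enzyme that charges both glutamic acid and proline tRNAs, measured 44.02, 46.8 and 41.1 FPKM in Control and 92.9, 103 and 94.4 FPKM with TGF-β1. For all 3 of these genes every TGF-β1 library lay well above every Control library. Lars changed by 1.37 and Eprs by 1.12 log2 units (limma adjusted p = 1.65e-04 and 1.65e-04). Mars, the methionyl enzyme, had 51.1, 50.3 and 60.9 FPKM in Control and 95.02, 102 and 95.8 FPKM with TGF-β1. Rars, the arginyl enzyme, had 69, 66.1 and 80.05 FPKM in Control and 111, 123 and 105 FPKM with TGF-β1. Dars, the aspartyl enzyme, had 36.7, 32.1 and 37.4 FPKM in Control and 53.2, 51.8 and 45.05 FPKM with TGF-β1. These 3 genes rose by 0.84, 0.65 and 0.49 log2 units (limma adjusted p = 8.21e-04, 0.00327 and 0.00881) with no overlap between groups, although in Dars TGF-β1 replicate 3 was near the Control range.

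Kars, the lysyl enzyme of both cytosol and mitochondrion, changed least among the called members. It measured 97.2, 101 and 98.4 FPKM in Control and 120.2, 131 and 113 FPKM with TGF-β1. The groups did not overlap, and the change was 0.29 ± 0.0815 log2 units (SE, limma adjusted p = 0.0277). This call was lost without Control replicate 1, Control replicate 2, TGF-β1 replicate 1 or TGF-β1 replicate 2, with limma adjusted p of 0.0753, 0.0598, 0.0867 and 0.0622. Qars, the glutaminyl enzyme, was the only complex synthetase not called. It measured 64.03, 56.9 and 53.97 FPKM in Control and 54.8, 56.5 and 51.6 FPKM with TGF-β1, so that the groups overlapped, and its change was -0.10 ± 0.0899 log2 units (SE, limma adjusted p = 0.404).

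Of the 3 scaffold proteins of the complex, 1 was called higher and the others were not called. Eef1e1 (AIMP3), which binds the complex and also takes part in the response to DNA damage, measured 16.4, 12.6 and 11.8 FPKM in Control and 34.6, 34.6 and 32.1 FPKM with TGF-β1. All TGF-β1 libraries were far above all Control libraries, with a fold change of 2.48 and a change of 1.26 ± 0.129 log2 units (SE, limma adjusted p = 4.97e-04). Aimp1, whose secreted form acts as a cytokine, measured 62.5, 58.3 and 60.3 FPKM in Control and 63.9, 69.96 and 58.3 FPKM with TGF-β1. Aimp2, the core scaffold, measured 42.3, 43.5 and 51.8 FPKM in Control and 50.2, 52.2 and 51.3 FPKM with TGF-β1. In both of these the groups overlapped, with changes of 0.08 and 0.16 log2 units (limma adjusted p = 0.492 and 0.208). Without Control replicate 3, Aimp2 was called higher, by 0.25 log2 units (limma adjusted p = 0.0329).

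Of the 12 cytosolic synthetases outside the complex, 10 were called higher, with a median change of 1.25 against 0.75 for the 8 within it. Tars, the threonyl enzyme (mm9 chr15:11313418-11329413, minus strand), had the largest change of all members. It measured 24.7, 24.9 and 31.4 FPKM in Control and 101, 93 and 98.04 FPKM with TGF-β1, and the means went from 27.01 ± 3.82 to 97.4 ± 4.13 FPKM (SD, n = 3). That is 3.61-fold, with a change of 1.82 ± 0.111 log2 units (SE, limma adjusted p = 7.70e-05). Gars, the glycyl enzyme of both compartments (mm9 chr6:54987995-55029498, plus strand), measured 51.6, 49.7 and 57.1 FPKM in Control and 181, 199 and 159 FPKM with TGF-β1. It rose 3.41-fold, by 1.75 ± 0.108 log2 units (SE, limma adjusted p = 8.09e-05), and even the lowest TGF-β1 library was far above Control. Gars and Kars, the pair that serve both compartments, thus stood near opposite ends of the called changes.

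Nars, Cars, Aars and Wars formed a group with similar changes and little spread. Nars, the asparaginyl enzyme, measured 56.9, 56.9 and 54.7 FPKM in Control and 156, 169.7 and 152 FPKM with TGF-β1. Cars, the cysteinyl enzyme, measured 40.9, 35.7 and 38.1 FPKM in Control and 112, 106 and 102 FPKM with TGF-β1. Aars, the alanyl enzyme, which edits mischarged serine, measured 39.5, 41.2 and 42.7 FPKM in Control and 106, 107 and 96.7 FPKM with TGF-β1. In each of these the 3 Control libraries lay close together, and the changes were 1.49, 1.46 and 1.30 log2 units (limma adjusted p = 4.08e-05, 5.91e-05 and 6.65e-05). Wars, the tryptophanyl enzyme, known as an interferon-induced gene whose fragments restrain vessel growth, measured 18.8, 21.6 and 19.7 FPKM in Control and 48.9, 47.1 and 45.2 FPKM with TGF-β1. It rose by 1.19 log2 units (limma adjusted p = 1.14e-04), with no overlap. Sars charges serine on both serine and selenocysteine tRNAs and measured 87.1, 99.1 and 154 FPKM in Control and 313, 255 and 275 FPKM with TGF-β1. Its Control replicate 3 was well above the other Control libraries, so that its change of 1.34 had a wide SE of 0.220 (limma adjusted p = 0.00348). All TGF-β1 libraries of Sars were nonetheless above that replicate.

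Smaller increases were measured for Yars and Hars. Yars, the tyrosyl enzyme, which can be cut into cytokine-like fragments, measured 28.7, 28.1 and 30.4 FPKM in Control and 43.6, 49.02 and 44.7 FPKM with TGF-β1. Hars, the histidyl enzyme and a target of autoantibodies in myositis, measured 26.1, 25.1 and 26.3 FPKM in Control and 38.04, 39.03 and 34.4 FPKM with TGF-β1. The groups did not overlap in either, and the changes were 0.64 and 0.51 log2 units (limma adjusted p = 0.00114 and 0.00273). Vars, the valyl enzyme, measured 48.2, 35.3 and 32.3 FPKM in Control and 61.9, 36.4 and 60.1 FPKM with TGF-β1. TGF-β1 replicate 2 lay within the Control range while the other TGF-β1 libraries were above it, and the change of 0.42 ± 0.245 log2 units was not called (SE, limma adjusted p = 0.200). Without TGF-β1 replicate 2, the library that stood apart in base composition, Vars changed by 0.67 log2 units (limma adjusted p = 0.0329). With the trend of each library with GC content and length removed, Vars changed by 0.61 log2 units (limma adjusted p = 0.0181). The Vars transcript is among the 5 members with at least 58% GC, beside Aars2, Pars2, Sars2 and Vars2. TGF-β1 replicate 2 was the lowest TGF-β1 library in 5 of these 5, in Pars2 only by 1.94 against 1.95 FPKM. That count depends on the cut. Just under it, Fars2 (56.7% GC) was lowest in TGF-β1 replicate 3, and Farsa (56.6% GC) was highest in TGF-β1 replicate 2. The share of all rows with this order was not computed.

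Phenylalanyl-tRNA synthetase is built from a catalytic alpha subunit, Farsa, and a beta subunit, Farsb, in equal number, and only the beta subunit was called. Farsa measured 41.2, 45.7 and 41.9 FPKM in Control and 41.6, 45.99 and 41.9 FPKM with TGF-β1, almost the same values in both groups, with a change of 0.01 ± 0.0808 log2 units (SE, limma adjusted p = 0.946). Farsb measured 22.96, 19.6 and 19.3 FPKM in Control and 38.4, 42.1 and 40.1 FPKM with TGF-β1, with no overlap and a change of 0.93 ± 0.0930 log2 units (SE, limma adjusted p = 4.57e-04). The Farsb to Farsa ratio was 0.557, 0.430 and 0.460 in the Control libraries and 0.923, 0.916 and 0.959 in the TGF-β1 libraries. It was 1.95-fold higher with TGF-β1 by a comparison added after the values were seen (two-sided exact permutation p = 0.1, the smallest that 3 against 3 libraries allow).

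By catalytic class, 8 of 10 class I and 9 of 10 class II cytosolic members were called higher, with median changes of 0.98 and 1.12. The increase was thus spread over both classes. In the mitochondrial group, 2 of the 8 class I members that passed the filter were called higher and 2 lower. Of 7 class II members, 0 were called higher and 1 lower. Over all tested rows 24.5% were called higher and 23.6% lower, and these small mitochondrial counts do not set the classes apart.

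**Figure D2:**
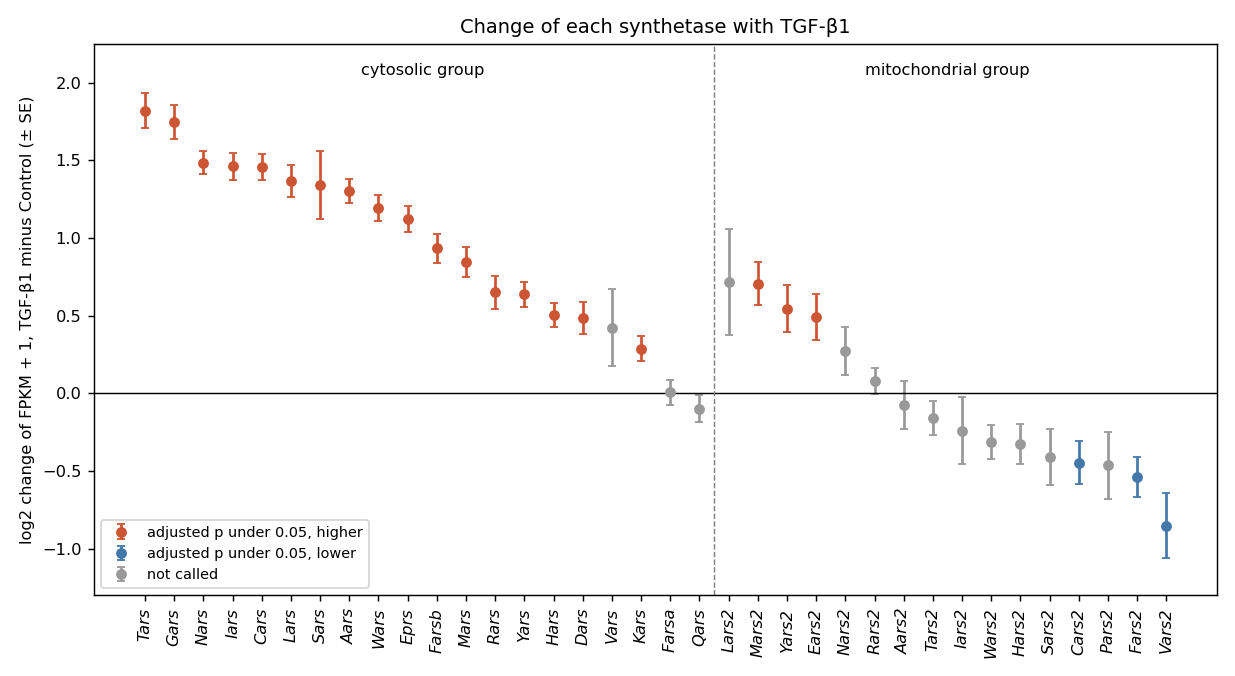
Change of each synthetase with TGF-β1 as the difference of log2(FPKM + 1), TGF-β1 minus Control, with bars of 1 SE from limma and n = 3 per group. Colours give the call at an adjusted p under 0.05, Mars2 coming from the fit without the filter, and the cytosolic values run from 1.82 for Tars to -0.10 for Qars, the mitochondrial ones from 0.72 for Lars2 to -0.85 for Vars2.

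Promoter windows of these genes were searched for TGATGNAA, the core of the C/EBP-ATF response element that ATF4 dimers are known to bind, on both strands (TTNCATCA on the reverse). The motif was chosen after it was known that members rose. RefSeq windows of 250 bases before to 50 after the transcription start on GRCm38.p6 matched 27 of 36 members, 13 cytosolic and 14 mitochondrial. The motif stood in a window of 5 of the 13 cytosolic genes (38.5%) and 0 of the 14 mitochondrial genes, against 1219 of 27025 genes in all (4.51%). Counted by window, 1304 of 32851 promoters held it (3.97%). The 5 genes were Aars, Gars, Iars, Tars and Yars. A match of each is shown because it carries the searched letters beside the transcription start of members that rose, written 5′ to 3′ on the strand of the gene with the match in capitals.
Aars, chr8:111033840-111033869, plus strand: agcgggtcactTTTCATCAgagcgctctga
Gars, chr6:55037960-55037989, plus strand: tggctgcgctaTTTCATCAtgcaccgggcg
Iars, chr13:49682126-49682155, plus strand: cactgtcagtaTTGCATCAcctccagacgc
Tars, chr15:11399655-11399684, minus strand: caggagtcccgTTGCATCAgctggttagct
Yars, chr4:129189895-129189924, plus strand: acgagctcagcTGATGCAAcccgacgggac
The first capital lay at 10 bases from the start in Aars, at -30 in Gars, 8 in Iars, -15 in Tars and 4 in Yars. Aars held another match, not shown, whose first base lay farther out, at -112. In Aars, Gars, Iars and Tars the match read on the reverse strand of the gene, and in Yars on the forward strand. All 5 were among the 11 cytosolic members with a window that were called higher. Only 2 cytosolic members with a window were not called, so this placing could hardly have differed and says little. Of the 5, Yars was the one that rose by less than 1 log2 unit. Whether ATF4 acts at these genes was not tested. A match describes these letters and is not a measured binding site, and Cars, Hars, Lars, Nars, Rars, Vars, Wars, Hars2 and Pars2 had no matched window.

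Among the mitochondrial synthetases, 3 were called lower. Vars2, the mitochondrial valyl enzyme (mm9 chr17:35792579-35804537, minus strand), had the largest decrease. It measured 8.02, 8.54 and 10.96 FPKM in Control and 5.17, 3.19 and 5.76 FPKM with TGF-β1, and the means went from 9.17 ± 1.57 to 4.71 ± 1.34 FPKM (SD, n = 3). All TGF-β1 libraries were below all Control libraries, with a change of -0.85 ± 0.209 log2 units (SE, limma adjusted p = 0.0165). Fars2, the single-chain mitochondrial phenylalanyl enzyme, measured 6.61, 8.27 and 7.08 FPKM in Control and 5.58, 4.36 and 4.27 FPKM with TGF-β1. Cars2, the mitochondrial cysteinyl enzyme, which can also make cysteine persulfides, measured 12.96, 16.4 and 11.2 FPKM in Control and 10.01, 9.03 and 9.61 FPKM with TGF-β1. In both, the groups did not overlap, and the changes were -0.54 and -0.45 log2 units (limma adjusted p = 0.0156 and 0.0385). The Fars2 call was lost without Control replicate 2 (limma adjusted p = 0.0501) or TGF-β1 replicate 3 (limma adjusted p = 0.0536). The Cars2 call was lost when any library other than Control replicate 3 was left out, with limma adjusted p of 0.0710 to 0.0966, and it was also lost without the filter (limma adjusted p = 0.0611).

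Another 3 mitochondrial members had all TGF-β1 libraries below all Control libraries without passing the test. Hars2, the histidyl enzyme, measured 10.1, 13.4 and 11.9 FPKM in Control and 9.45, 8.09 and 10.02 FPKM with TGF-β1. Sars2, the seryl enzyme, measured 4.35, 5.61 and 5.14 FPKM in Control and 4.23, 2.50 and 4.06 FPKM with TGF-β1. Wars2, the tryptophanyl enzyme, measured 3.24, 3.04 and 2.95 FPKM in Control and 2.58, 2.30 and 1.99 FPKM with TGF-β1. Their differences were -0.33, -0.41 and -0.31 log2 units (limma adjusted p = 0.0813, 0.111 and 0.0585). Without Control replicate 1, Hars2 was called lower (limma adjusted p = 0.0428). Sars2 was at -0.23 log2 units without TGF-β1 replicate 2 (limma adjusted p = 0.209). Wars2 was called lower in 6 of 19 refits, among them those with the GC and length trend removed (limma adjusted p = 0.0118) and with upper-quartile scaling (limma adjusted p = 0.0284). Hars2 and Hars lie head to head and overlap on opposite strands, so reads of the 2 genes in the overlap may not have been separated.

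Yars2, Ears2 and Mars2 were called higher. Yars2, the mitochondrial tyrosyl enzyme, measured 5.05, 7.27 and 6.58 FPKM in Control and 10.1, 10.4 and 8.29 FPKM with TGF-β1. It was 1.53-fold higher with no overlap, a change of 0.55 ± 0.149 log2 units (SE, limma adjusted p = 0.0244). Ears2, the mitochondrial glutamyl enzyme, which also charges the glutamine tRNA there, measured 1.46, 0.939 and 1.11 FPKM in Control and 1.70, 2.19 and 2.24 FPKM with TGF-β1. Its groups did not overlap, and its change was 0.49 ± 0.146 log2 units (SE, limma adjusted p = 0.0326), and the table row names a retained-intron transcript. Mars2, the mitochondrial methionyl enzyme, measured 0.303, 0.439 and 0.311 FPKM in Control and 1.12, 1.66 and 0.895 FPKM with TGF-β1, or about 9, 13 and 9 fragments in Control and 32, 45 and 26 with TGF-β1. It rose 3.49-fold in FPKM without overlap, with a change of 0.71 ± 0.140 in the fit without the filter (SE, limma adjusted p = 0.0126). The Yars2 call was lost without Control replicate 1, TGF-β1 replicate 1 or TGF-β1 replicate 2 (limma adjusted p = 0.0524, 0.0787 and 0.0692), and the Mars2 call without Control replicate 1 or Control replicate 3 (limma adjusted p = 0.0560 and 0.0535). The Ears2 call was lost without Control replicate 2, Control replicate 3, TGF-β1 replicate 2 or TGF-β1 replicate 3 (limma adjusted p = 0.0734 to 0.0976).

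The other 7 mitochondrial members had overlapping groups and were not called. Lars2, the leucyl enzyme, measured 32.4, 22.6 and 23.01 FPKM in Control and 32.5, 32.3 and 74.4 FPKM with TGF-β1. Iars2, the isoleucyl enzyme, measured 29.9, 21.2 and 35.3 FPKM in Control and 28.1, 19.2 and 24.7 FPKM with TGF-β1. Rars2, the arginyl enzyme, measured 14.02, 15.98 and 13.9 FPKM in Control and 15.9, 15.5 and 15.2 FPKM with TGF-β1. In Lars2 a single library, TGF-β1 replicate 3, was more than 2 times every other one, and the difference of 0.72 log2 units (limma adjusted p = 0.132) became 0.33 without it (limma adjusted p = 0.201). Tars2, the threonyl enzyme, measured 8.71, 9.38 and 10.9 FPKM in Control and 9.17, 8.58 and 7.88 FPKM with TGF-β1. Pars2, the prolyl enzyme, measured 3.90, 2.72 and 4.43 FPKM in Control and 3.35, 1.94 and 1.95 FPKM with TGF-β1. Aars2, the alanyl enzyme, measured 3.05, 3.16 and 4.10 FPKM in Control and 3.36, 2.57 and 3.73 FPKM with TGF-β1. In these 3 the TGF-β1 libraries reached lower than any Control library but shared part of the Control range. Without TGF-β1 replicate 1, Pars2 was called lower, at -0.65 log2 units (limma adjusted p = 0.0479). Nars2, the asparaginyl enzyme, measured 1.95, 1.20 and 1.27 FPKM in Control and 1.73, 2.22 and 1.95 FPKM with TGF-β1. The differences of Iars2, Rars2, Tars2, Pars2, Aars2 and Nars2 were -0.24, 0.08, -0.16, -0.46, -0.07 and 0.27 log2 units, with limma adjusted p of 0.124 to 0.715. Iars2 was at -0.44 without Control replicate 2, -0.08 without Control replicate 3 and -0.09 without TGF-β1 replicate 2, and was called lower with the GC and length trend removed and a replicate block (limma adjusted p = 0.0326).

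The ratio of FPKM was taken within each library for 17 pairs of a cytosolic and a mitochondrial synthetase of the same amino acid. This removes the scale of the library but not its trend with GC content. Eprs and Fars2 are each shared between pairs. In 13 pairs the ratio was higher in every TGF-β1 library than in every Control library, in Mars/Mars2 it was lower, and in 3 pairs the groups overlapped. The log2 difference ran from -0.92 to 2.04 with a median of 1.42. In two-sided exact permutation tests, p was 0.1 for the 14 pairs without overlap, which is the smallest p that 3 against 3 libraries allow (0.121 after Benjamini-Hochberg adjustment over the 17 pairs). No pair could therefore pass a threshold of 0.05. The ratios use the same values as the calls above and are not separate evidence, and other gene pairs were not compared.

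The Tars/Tars2 ratio was 2.83, 2.66 and 2.87 in the Control libraries and 11.04, 10.8 and 12.4 in the TGF-β1 libraries. The Cars/Cars2 ratio was 3.16, 2.18 and 3.40 in the Control libraries and 11.2, 11.7 and 10.7 in the TGF-β1 libraries. These rose 4.10-fold and 3.91-fold, the 2 widest gaps. The Iars/Iars2 ratio changed sides, from 0.548, 0.804 and 0.472 in the Control libraries to 1.61, 2.77 and 1.83 with TGF-β1, so that the mitochondrial mRNA was the more abundant per length only in Control. The Lars/Lars2 ratio was 0.448, 0.654 and 0.509 in the Control libraries and 1.11, 1.15 and 0.495 in the TGF-β1 libraries, the last library being the one with high Lars2. The remaining pairs without overlap differed by 1.86 for Sars/Sars2, 1.77 for Eprs/Pars2, 1.67 for Wars/Wars2, 1.60 for Farsb/Fars2, 1.43 for Vars/Vars2, 1.42 for Aars/Aars2, 1.05 for Nars/Nars2, 0.88 for Hars/Hars2, 0.64 for Farsa/Fars2 and 0.57 for Rars/Rars2 in log2 units. Eprs/Ears2 and Yars/Yars2 overlapped, with differences of 0.32 and 0.04 log2 units (two-sided exact permutation p = 0.3 and 0.9). The Mars/Mars2 ratio was 168.5, 115 and 196 in the Control libraries and 84.7, 61.4 and 107 in the TGF-β1 libraries, since Mars2 rose by the larger factor from very low values. That direction turned when 1 FPKM was added to each value, with a log2 difference of 0.14.

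**Figure D3:**
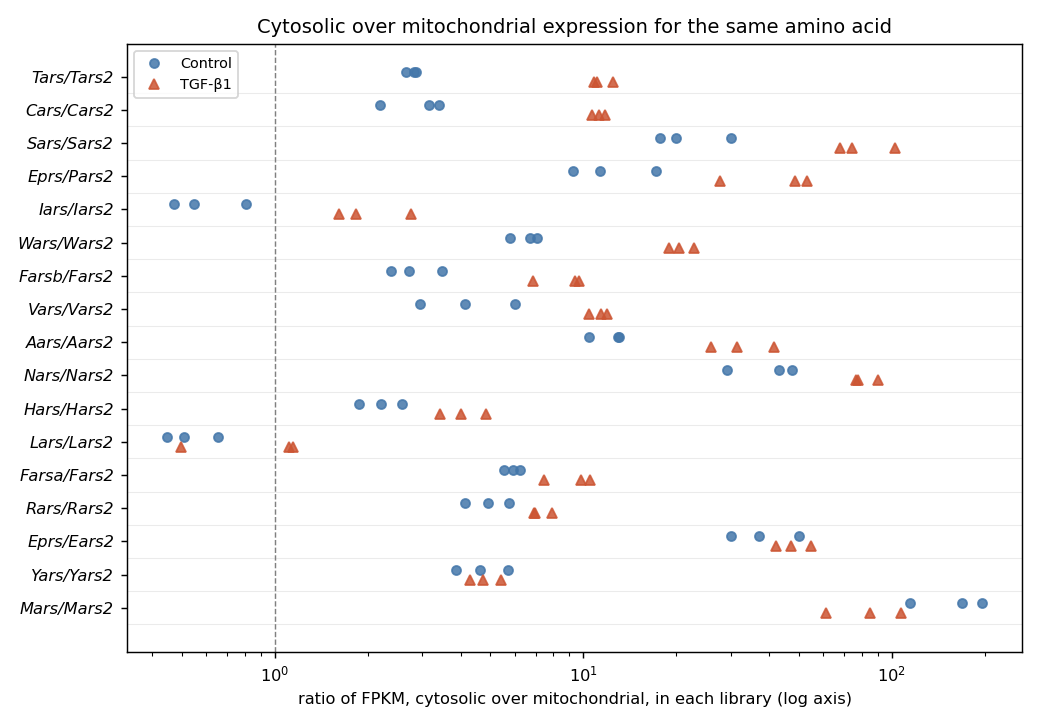
Ratio of cytosolic to mitochondrial FPKM for the same amino acid in each library, on a log axis, with Control as circles, TGF-β1 as triangles and a dashed line at equal FPKM. The triangles lie to the right of all circles in 13 of 17 pairs, overlap them in Lars/Lars2, Eprs/Ears2 and Yars/Yars2, and lie to the left in Mars/Mars2.

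Of the 10 related charging factors, 1 was called higher and 2 lower, with a median change of -0.05. Over all tested rows 24.5% were called higher and 23.6% lower, so these counts are not above the background. Tarsl2, a cytosolic threonyl-tRNA synthetase paralogue of Tars, measured 34.3, 33.3 and 33 FPKM in Control and 19.1, 23.01 and 22.7 FPKM with TGF-β1. It fell by 0.62 log2 units with no overlap (limma adjusted p = 0.00239), while Tars had the largest increase of all members. Mitochondria have no separate glutaminyl enzyme and instead convert glutamate on the glutamine tRNA with an amidotransferase. Of its 3 subunits, Qrsl1 measured 4.69, 3.69 and 4.99 FPKM in Control and 7.20, 5.44 and 6.397 FPKM with TGF-β1 and was called higher (0.43 log2 units, limma adjusted p = 0.0444). The Qrsl1 call was lost without Control replicate 1, Control replicate 2, TGF-β1 replicate 1 or TGF-β1 replicate 3 (limma adjusted p = 0.0789 to 0.136). Pet112l, the GatB subunit, measured 6.71, 6.49 and 5.71 FPKM in Control and 3.75, 3.10 and 4.25 FPKM with TGF-β1 and was called lower (-0.64 log2 units, limma adjusted p = 0.00654). Gatc measured 19.2, 21.6 and 16.8 FPKM in Control and 16.6, 16.4 and 14.4 FPKM with TGF-β1, with all TGF-β1 libraries lower but no call (-0.26 log2 units, limma adjusted p = 0.102), and it was called lower without Control replicate 3 (limma adjusted p = 0.0421). The subunits of this enzyme thus had values in both directions.

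Mtfmt, which formylates the mitochondrial initiator methionine tRNA, measured 8.82, 11.1 and 12.3 FPKM in Control and 9.61, 13.5 and 9.40 FPKM with TGF-β1. Pstk and Sepsecs, which turn serine into selenocysteine on its tRNA, differed by 0.12 and -0.11 log2 units. Dtd1 and Aarsd1, which remove wrongly attached amino acids from tRNA, differed by -0.59 and 0.03 log2 units, and Dtd1 by -0.25 without Control replicate 3, where it was at 15.9 FPKM. None of Mtfmt, Pstk, Sepsecs, Dtd1 and Aarsd1 was called, with limma adjusted p of 0.160 to 0.980.

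After charging, elongation factors bring the tRNA to the ribosome of either compartment. Of 8 cytosolic elongation and termination factors, 5 were called higher and 0 lower, with a median change of 0.54. Over all tested rows the shares were 24.5% higher and 23.6% lower. Eef1g, a subunit of the exchange factor that reloads the tRNA carrier eEF1A, measured 237, 245 and 218 FPKM in Control and 465, 499 and 463 FPKM with TGF-β1 (1.03 log2 units, limma adjusted p = 2.31e-04). Eif5a, which relieves ribosomes stalled at proline stretches, and Etf1, the release factor, rose by 0.91 and 0.66 log2 units (limma adjusted p = 2.17e-04 and 0.00101). Of 9 mitochondrial translation factors, 1 was called higher and 0 lower, with a median of 0.05, counts under those shares. The one called was Gfm1, the mitochondrial elongation factor G, at 8.92, 11.8 and 11.4 FPKM in Control and 16.4, 17.5 and 15.1 FPKM with TGF-β1 (0.57 log2 units, limma adjusted p = 0.0102).

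Of 18 genes of tRNA maturation and export, 3 were called higher and 5 lower, with a median of 0.10, and over all tested rows 24.5% were called higher and 23.6% lower. These counts are therefore near the background. Xpot, the export receptor that carries mature tRNA out of the nucleus, measured 8.99, 9.17 and 10.8 FPKM in Control and 26.4, 27.3 and 25.2 FPKM with TGF-β1. It rose by 1.36 log2 units (limma adjusted p = 1.13e-04) with no overlap, a change within the range of the free synthetases. Tsen54, a subunit of the endonuclease that removes tRNA introns, measured 21.1, 26.5 and 28.9 FPKM in Control and 11.1, 7.00 and 10.5 FPKM with TGF-β1. Rpp25, a subunit of ribonucleases P and MRP, measured 2.90, 2.52 and 2.91 FPKM in Control and 1.35, 1.12 and 1.53 FPKM with TGF-β1. These fell by 1.34 and 0.70 log2 units (limma adjusted p = 0.00212 and 0.00418), without overlap.

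Of 18 genes of the integrated stress response, 14 were called higher and 0 lower, with a median change of 1.14. The shares over all tested rows were 24.5% higher and 23.6% lower. Trib3, a pseudokinase that dampens ATF4, measured 0.826, 0.904 and 0.762 FPKM in Control and 29.7, 20.9 and 25.1 FPKM with TGF-β1. Chac1, which degrades glutathione, measured 3.14, 1.95 and 1.10 FPKM in Control and 19.6, 18.7 and 18.9 FPKM with TGF-β1. Asns, the enzyme that makes asparagine, measured 30.6, 24.1 and 30.1 FPKM in Control and 148, 159 and 137 FPKM with TGF-β1. The 3 genes rose by 3.83, 2.77 and 2.35 log2 units (limma adjusted p = 1.25e-05, 2.57e-04 and 3.78e-05), each above the value of any synthetase, and their groups did not overlap. The median for the cytosolic synthetases was 1.03. Ddit3, a stress-response transcription factor that overlaps Mars on the opposite strand, rose by 0.57 log2 units (limma adjusted p = 0.00878).

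**Figure D4:**
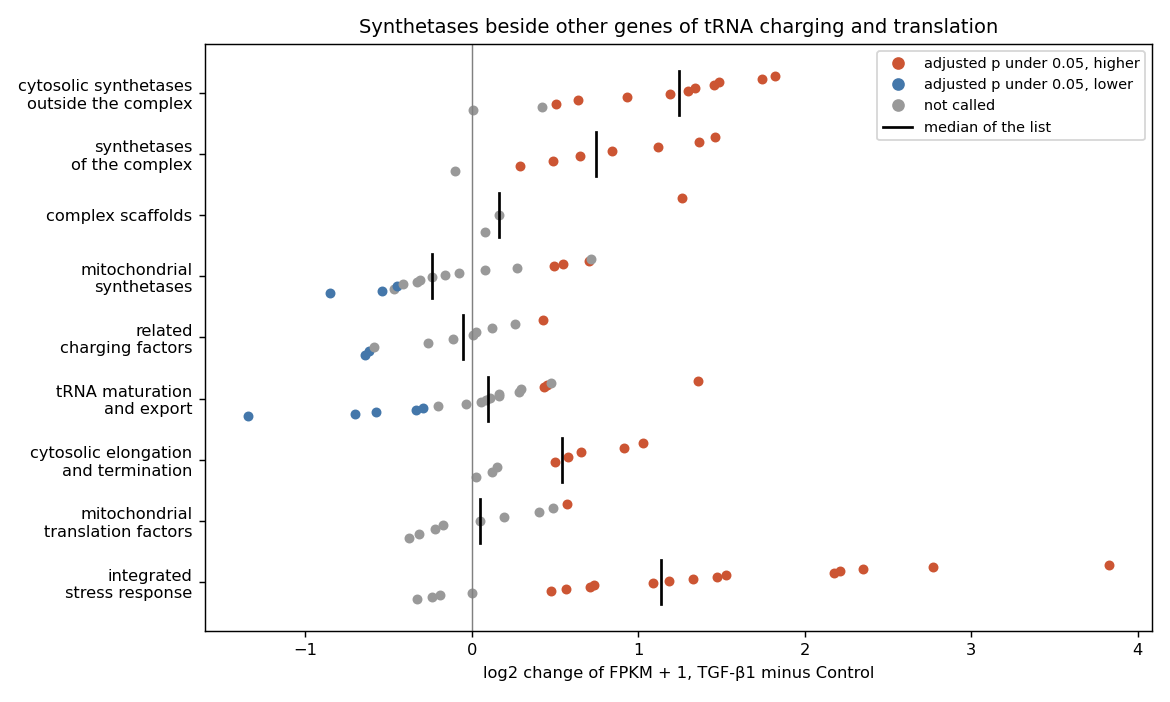
Changes with TGF-β1 of the synthetase groups and of 6 other lists of charging and translation genes, each point a gene on the log2(FPKM + 1) scale and each black bar the median of the members that passed the filter. Free cytosolic synthetases (median 1.25), complex synthetases (0.75) and stress-response genes (1.14) lie to the right of 0, and mitochondrial synthetases (-0.24) and related charging factors (-0.05) lie around it.

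The sources do not say whether FPKM was estimated with regard to strand, so for the 13 members that overlap a gene on the opposite strand the reads of both genes may be mixed. These are Aars, Cars, Farsb, Hars, Lars, Mars, Sars, Vars, Yars, Ears2, Hars2, Iars2 and Nars2. The rows of Wars, Ears2 and Hars2 name a transcript that is not annotated as protein coding, and whether a row holds the value of the gene or of that transcript was also not stated.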

How the data were processed

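RNA was sequenced from 3 Control and 3 TGF-β1 libraries, grouped by their labels. The authors aligned reads to the mouse genome (mm9) by TopHat, and Cufflinks gave FPKM, so the deposited values are FPKM, 1 column per library, with no counts used here. The submitters' processing notes name TopHat2 2.0.11.

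Rows with a mean of at least 1 FPKM (11898 of 19730) were tested with limma 3.58.1 in R 4.3.3, with its trend option, on log2(FPKM + 1), where the added 1 understates changes of low genes. Tests were two-sided with Benjamini-Hochberg adjustment over all tested rows, and an adjusted p under 0.05 was called. Mars2 fell under the filter and came from the fit without it. Ratios of FPKM were compared with exact permutation tests (scipy 1.17.1). The steps were tested on simulated data. For limma these had independent noise, few changed rows and no trend with GC content, unlike the data here. Error rates under the conditions of these data were therefore not checked. Depth was recovered from genes with 1 transcript, 662 to 748 per library, at least 99.4% of whose low values were within 0.1 of a whole number of fragments, assuming fragments of 200 nt. Such depths cover counting error only.

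All 36 members, the scaffolds and the related charging factors are named, except for 1 charging factor that is not reported here, and of each other list the 3 called genes with the largest absolute change. Ddit3 is named beyond this rule for its overlap with Mars. The members and lists were chosen with earlier results of these data known. Coordinates are GENCODE M1 (mm9) and promoters RefSeq (GRCm38.p6). Alternatives changed the pseudocount, filter, scaling, threshold, trend, covariates and libraries used.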

Additional observations from a re-analysis of the deposited data

How the results depend on the processing

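Across 20 alternative settings, 23 of 36 members stayed called or not called as reported, among them 17 of 20 cytosolic and 6 of 16 mitochondrial ones. The 6 mitochondrial ones were Aars2, Lars2, Nars2, Rars2, Sars2 and Tars2, all not called, so no mitochondrial call held in every refit. Wars, Ears2, Hars2, Nars2 and Wars2 had 16 to 19 refits, since some settings did not test them. Mars2 was refitted only without the filter, leaving out each library in turn and at an adjusted p under 0.01. The cytosolic count was 15 to 17 called higher and 0 lower throughout, and Kars, Dars and Vars were the exceptions. The mitochondrial count called higher was 2 and became 1 with a mean of at least 3 FPKM, when limited to coding rows of 300 nt or more, with the GC and length trend removed and with that and the replicate block. In these settings Ears2 was not among the tested rows, and Yars2 stayed called (limma adjusted p = 0.0151 to 0.0380). The count called higher became 0 with replicates 1 and 3 only and at an adjusted p under 0.01. It was 0 to 1 when a library was left out. The count called lower was 3 and became 5 with upper-quartile scaling and 1 with replicates 1 and 3 only. It was 0 at an adjusted p under 0.01 and 1 to 3 when a library was left out. With median-of-ratios scaling, without the limma trend option and for coding rows of 300 nt or more it was 4. It was also 4 with the GC and length trend removed and the replicate block, and 2 without the filter. At an adjusted p under 0.01, 3672 rows were called in all, 1727 of them lower, and fewer calls follow from the stricter threshold itself. Apart from this and the settings that left out Ears2, the cause of the shifts was not tested. The following differences, none of them called, turned sign. Farsa was at -0.0162 with median-of-ratios scaling, at -0.0806 with upper-quartile scaling and at -0.0375 to 0.0521 when a library was left out. Rars2 was at -0.0037 with upper-quartile scaling and -0.0487 with the GC and length trend removed, with or without the block. Aars2 was at 0.101 with that trend removed, with or without the block, and at -0.161 to 0.0411 when a library was left out. The Yars/Yars2 ratio difference was -0.0898 with replicates 1 and 3 only and -0.100 to 0.179 when a library was left out, and that of Mars/Mars2 was 0.14 with 1 FPKM added. Among charging factors and scaffolds, Mtfmt was at -0.0157 with median-of-ratios scaling, -0.0759 with upper-quartile scaling, -0.119 with replicates 1 and 3 only and -0.0488 with the GC and length trend removed, with or without the block. Aimp1 was at -0.0089 with upper-quartile scaling and -0.0092 with replicates 1 and 3 only, and Aarsd1 at -0.0558 with upper-quartile scaling. When a library was left out, Mtfmt lay at -0.147 to 0.101, Pstk at -0.0520 to 0.324 and Aarsd1 at -0.0957 to 0.137. The median change of all tested rows was -0.04 with median-of-ratios and -0.10 with upper-quartile scaling. Deviations from the group means of same-numbered libraries had r = 0.0921, 0.232 and 0.0853, not all over 0.1, so the numbers were not taken to pair the libraries. The fit with the replicate number as a block called 17 cytosolic members higher and 1 mitochondrial member higher and 2 lower, and in this check Control replicate 1 did not correlate best with its own number. The alternatives on base composition and coding rows, the refits of Mars2 and the Farsb to Farsa ratio were chosen after seeing the data. Depth limits Mars2, which rests on about 9 to 45 fragments per library.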
